A study of Homo sapiens with 12 samples.

Results

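The 10 genes described here encode the nuclear lamins and the proteins that couple them to the cytoskeleton: LMNA, LMNB1, LMNB2, LBR, EMD, SUN1, SUN2, SYNE1, SYNE2 and SYNE3. They were taken as a list of symbols by a rule that uses no measured values, but with earlier results of these data known. They make up 10 of 20037 protein-coding genes on chromosomes 1 to 22, X and Y of the RefSeq table. A site was assigned to a gene when its summit, the position of highest signal in a peak, lay inside the gene or within 10 kb of it. This gave 101 summits in 82 intervals, of 188019 summits in the whole list. The study measured chromatin accessibility by ATAC-seq, in which a transposase cuts and tags open DNA, in HT1080 cells, an established human fibrosarcoma line. The cells had migrated for 48 h inside rat tail type I collagen gels. The gels held collagen at 0.3 mg/mL in the low group, at 1.0 mg/mL in the medium group and at 1.7 mg/mL in the high group. Each group has 4 libraries, 12 in all. Cells of all 3 groups also received 20 µM GM6001, a broad inhibitor of matrix metalloproteinases, so no group migrated with uninhibited proteases. Gels were dissolved with collagenase and the cells were frozen before up to 25000 of them entered each library.

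The values come from 1 list of peaks pooled over the series. No column of it names a library or a collagen concentration, so nothing below compares concentrations, no value has a replicate, and the depth per library is unknown. The cell type was checked by summits within 1000 bp of the outer ends of marker genes. Such summits were present at 7 of 10 mesenchymal, 1 of 8 epithelial, 4 of 6 haematopoietic and 0 of 5 striated muscle markers. The share over all coding genes was 65.7%, and the mesenchymal share of 70% was close to it. FN1, VIM and ZEB1 were among the mesenchymal markers with a summit, and PRRX1, ZEB2 and THY1 had none near an outer end. At listed starts the numbers were 5 of 7 mesenchymal, 0 of 3 epithelial, 2 of 4 haematopoietic and 0 of 3 muscle genes. The haematopoietic genes with a summit near an outer end were CD3E (enrichment 14.5), LAPTM5 (11.4), SPI1 (8.44) and CORO1A (6.01), a share close to that of all coding genes, so this list did not set the cells apart from blood cells. The epithelial gene with one was EPCAM (2.11). Elsewhere inside the gene or within 10 kb, CLDN4 reached 16.4, EPCAM 15.9 and CDH1 12.5. OVOL1 reached 9.18, RAB25 8.58 and GRHL2 6.31, and ESRP1 and KRT5 had no summit.

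Lamins are intermediate filament proteins that form a meshwork under the inner nuclear membrane. LMNA gives lamins A and C by alternative splicing, whereas LMNB1 and LMNB2 each encode a B-type lamin that stays attached to the membrane. LBR and EMD (emerin) are inner membrane proteins that hold lamins and chromatin at the envelope. SUN1 and SUN2 span the inner membrane and join, in the space between the membranes, the KASH domains of the nesprins encoded by SYNE1, SYNE2 and SYNE3. Together SUN and KASH proteins form the LINC complex, which passes force from actin, microtubules and intermediate filaments to the lamina, and which takes part in moving and deforming the nucleus during migration.

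The promoter table (RefSeq, GRCh38.p14) held 20 listed start sites for 9 of the 10 genes; SUN1 had no entry. Each window runs from 250 bases before a start to 50 bases after it. The stretches below end at the base before a start and are written on the strand of the gene, 5′ to 3′. They were chosen because they lead up to starts whose strongest summit within 1000 bp was the highest (EMD) or the lowest (SYNE1) of the genes, or was shared with a neighbouring gene (LMNA with MEX3A, LMNB1 with LMNB1-DT). Of the printed stretches, that of SYNE1 holds the summit position itself, and the summits of the others lie outside the letters shown. The internal starts of LMNA and SYNE2, the SYNE3 start and the LBR start were added after their values were seen. Capitals mark matches to any of 9 short motifs on either strand: GGGCGG for the GC box, CCAAT for the box of that name, CCGGAAG for ETS factors, GCATGCGC for part of the NRF1 site, TGACGT for part of the cyclic AMP response element (CRE), TGANTCA for AP-1, AAGATGG for the YY1 core, GGAATG for TEAD factors and TATAAA for the TATA box. No matches to different motifs overlapped in the 20 windows. The EMD stretch is chrX:154379045-154379294 (plus strand). The stretch at the outer start of LMNA, chr1:156082466-156082572 (plus), covers only the bases between the starts of MEX3A and LMNA. The internal LMNA start has chr1:156106566-156106715 (plus), LMNB1 chr5:126776986-126777135 (plus), SYNE2 chr14:63852854-63853003 (plus), SYNE1 chr6:152636891-152637040 (minus), SYNE3 chr14:95516651-95516800 (minus) and LBR chr1:225428822-225428971 (minus).
EMD: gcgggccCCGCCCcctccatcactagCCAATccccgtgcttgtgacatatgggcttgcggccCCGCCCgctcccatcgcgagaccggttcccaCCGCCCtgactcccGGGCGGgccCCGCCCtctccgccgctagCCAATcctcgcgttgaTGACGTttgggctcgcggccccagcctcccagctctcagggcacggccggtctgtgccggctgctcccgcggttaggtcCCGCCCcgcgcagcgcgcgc
LMNA outer start: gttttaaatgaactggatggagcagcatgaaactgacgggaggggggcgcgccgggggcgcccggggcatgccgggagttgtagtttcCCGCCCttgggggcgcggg
LMNA internal start: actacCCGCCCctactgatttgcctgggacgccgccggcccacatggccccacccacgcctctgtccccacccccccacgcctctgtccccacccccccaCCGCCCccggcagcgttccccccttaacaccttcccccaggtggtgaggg
LMNB1: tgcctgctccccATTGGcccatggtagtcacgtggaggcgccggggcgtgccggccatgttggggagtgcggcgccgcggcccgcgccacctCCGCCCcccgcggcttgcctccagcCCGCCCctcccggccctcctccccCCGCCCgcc
SYNE2 internal start: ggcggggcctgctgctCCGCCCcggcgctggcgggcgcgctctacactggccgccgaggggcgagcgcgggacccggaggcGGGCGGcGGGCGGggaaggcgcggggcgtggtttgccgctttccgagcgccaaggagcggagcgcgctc
SYNE1 outer start: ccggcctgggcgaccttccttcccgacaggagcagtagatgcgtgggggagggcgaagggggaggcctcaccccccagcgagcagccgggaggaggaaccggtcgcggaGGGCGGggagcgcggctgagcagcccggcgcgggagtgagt
SYNE3 outer start: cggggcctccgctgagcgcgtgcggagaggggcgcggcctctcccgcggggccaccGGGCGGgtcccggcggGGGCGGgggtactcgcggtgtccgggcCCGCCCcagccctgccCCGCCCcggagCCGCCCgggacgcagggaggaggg
LBR: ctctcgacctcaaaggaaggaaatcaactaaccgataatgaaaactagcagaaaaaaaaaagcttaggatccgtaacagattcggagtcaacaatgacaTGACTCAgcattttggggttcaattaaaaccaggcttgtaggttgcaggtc

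GC boxes were the motif found most often. They were present in 13 of the 20 windows, some of which belong to starts of the same gene, compared with 56.3% of the 22175 windows of coding genes. The EMD window held 6 GC boxes, 2 CCAAT boxes and 1 partial CRE, which 8.94% of all windows hold. The SYNE3 outer window also held 6 GC boxes, 5 of them in the printed stretch, the SUN2 outer window held 5, and the LBR window held none and 1 AP-1 match (6.14% of all windows). CCAAT boxes were in 6 of the 20 windows (34.7% of all), YY1 cores in 3 (6.04%), AP-1 matches in 2 (6.14%), and ETS (12.8%), TEAD (12.2%), TATA (9.47%) and partial CRE (8.94%) in 1 each. The partial NRF1 site, present in 3.74% of all windows, was in 0 of the 20. A match says only that these letters are present.

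Most of the genes had accessible chromatin at a start, but the strength ranged widely. A summit lay within 1000 bp of an outer end, the first or last base of the gene, in 8 of 10 genes, where 65.7% of all coding genes had one. SYNE2 and SYNE3 were the exceptions, and no listed start of SYNE2 lies within 1000 bp of an outer end. A summit lay within 1000 bp of a listed start in 9 of 9 genes, against 67.6% of 15842 coding genes with a listed start. The strength is given as the deposited enrichment, the ratio of fragments at the summit to the local background. The median of the strongest start summit was 11.7 over the 9 genes and 12.3 over all coding genes with one, so the genes as a list lay near the middle of the genome. With each value goes the 95% Poisson interval of its fragment count, carried to the enrichment with the background held fixed. These intervals cover counting error only and treat every fragment as independent. Fragments amplified by PCR without molecular identifiers are not independent molecules, so the intervals may be too narrow even for that error.

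In order of the strongest summit at a start, EMD came first with an enrichment of 15.3 (14.9 to 15.7), higher than 77.6% of coding genes with a start summit. LMNA followed with 14.5 (13.9 to 15.2) at its internal start, LMNB1 with 13.0 (12.5 to 13.5), SYNE2 with 12.9 (11.9 to 14.04) and LBR with 11.7 (11.0 to 12.4). SUN1, measured at the outer end of the gene table, had 8.98 (8.47 to 9.53). The lower group was SUN2 with 7.57 (6.98 to 8.20), LMNB2 with 6.49 (5.82 to 7.22), SYNE3 with 4.47 (3.73 to 5.31) and SYNE1 with 3.24 (2.52 to 4.09), the last higher than only 9.28% of coding genes with a start summit. Intervals of neighbours in this order overlapped for every pair except LMNA and LMNB1, LBR and SUN1, SUN1 and SUN2, and LMNB2 and SYNE3. Between replicates the spread is not known.

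**Figure D1:**
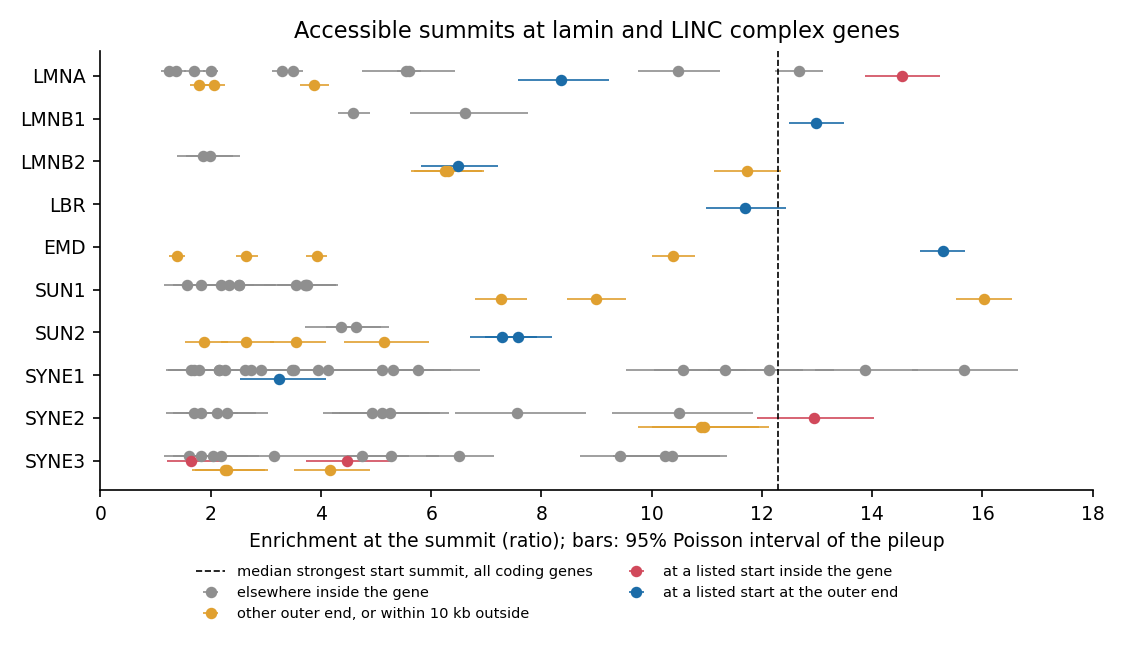
Enrichment at each of the 101 summits, by gene (horizontal axis, ratio to local background; bars are 95% Poisson intervals of the pileup). Blue and red points lie within 1000 bp of a listed start at the outer end or inside the gene, grey points elsewhere inside the gene and orange points at another outer end or up to 10 kb outside; the dashed line marks the median strongest start summit of all coding genes, 12.3. EMD, LMNA, LMNB1 and SYNE2 have a start summit to the right of the line, and the strongest points of SYNE1 are grey.

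**Figure D2:**
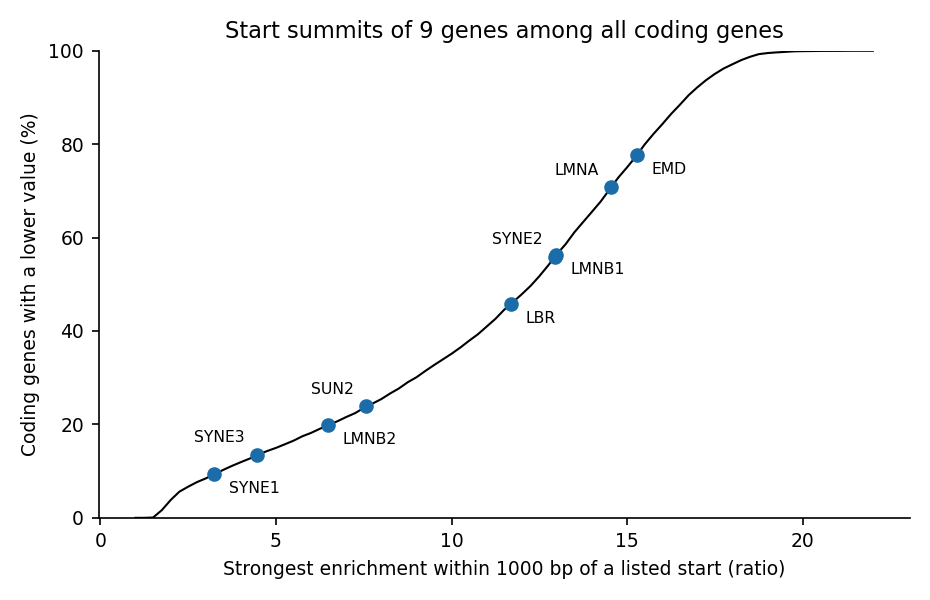
Share of coding genes with a lower value (vertical axis, percent) against the strongest enrichment within 1000 bp of a listed start (horizontal axis, ratio). The line is the distribution over coding genes with such a summit and the points are the 9 genes with a listed start, which spread from 9.28% (SYNE1) to 77.6% (EMD).

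Among the lamins, LMNA had the most accessible sites. Its 57509 bp on chr1:156082573-156140081 and the flanks held 15 summits, or 19.4 per 100 kb, more than 94.4% of coding genes, and intervals covered 12.7% of the gene. The gene has listed starts at its first base, 0.308 kb further in and 24.1 kb further in. At the outer start (interval chr1:156082105-156083161) the summit lay 7 bp after the first base, with an enrichment of 8.36 (7.57 to 9.22) from 403 fragments. The start of MEX3A, which encodes an RNA-binding protein and is transcribed the other way, lies 108 bp away, so this site cannot be assigned to LMNA alone.

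The internal start of LMNA was the strongest of its listed starts. Its summit, 281 bp before the start in chr1:156106064-156106802, had 1798 fragments and an enrichment of 14.5, and no end of another gene lay within 1000 bp. That is 4.46 times the fragments at the outer start. A further site 7.76 kb beyond the internal start (chr1:156114142-156115120) had the largest pileup of the gene, 3319 fragments, with an enrichment of 12.7 (12.2 to 13.1). No listed start or gene end lay near it, and whether it holds a start that is not listed was not tested. Another internal site between the starts, in chr1:156096505-156097392, had 778 fragments and 10.5. The other internal summits had enrichments of 5.59 or less, and the lowest of these, 1.25, had a −log10 q of 1.88. In the last part of the gene the local background reached 463.5 fragments, and a summit with 2587 fragments (chr1:156126111-156127482) therefore had an enrichment of 5.59. Ranked by fragments this site was the second of the gene, and ranked by enrichment it was the fifth.

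LMNB1 had few sites and 1 of them was strong. Of 3 summits, the one at the start (chr5:126776530-126777463) had 2705 fragments and an enrichment of 13.0. It lay between the 2 listed starts of the gene, 218 bp before the second, and 432 bp from the end of LMNB1-DT, a noncoding RNA gene transcribed divergently. A summit 1.26 kb beyond the second start had 953 fragments and an enrichment of 4.59 over a background of 206.8, and an internal one at chr5:126811441-126812175 had 152 fragments and 6.62 over a background of 22.1. By fragments the first of these was the larger, and by enrichment the second.

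LMNB2 had a weaker start. The summit 101 bp before its only listed start (chr19:2456918-2457336) had 337 fragments and an enrichment of 6.49. The strongest summit near the gene, 11.7 (11.1 to 12.3) from 1443 fragments, lay 0.434 kb beyond its 3′ end in chr19:2426765-2428057. It was 146 bp from the start of TIMM13, which encodes a small chaperone of mitochondrial protein import. Counting either end of LMNB2 alike therefore raised its value from 6.49 to 11.7. Both internal summits were low, 1.99 and 1.85.

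Of the inner membrane proteins, EMD had the highest pileup of all 101 summits. The gene is 2229 bp long, at chrX:154379295-154381523, and its start summit (chrX:154378377-154379474, 283 bp before the start) had 5511 fragments over a background of 359.8. This pileup was higher than the largest of 99.8% of coding genes. The 4 other summits lay outside the gene, the strongest of them, 10.4 with 2690 fragments, 8.48 kb beyond the 3′ end. LBR, which binds B-type lamins and heterochromatin and also carries a sterol reductase domain, had 1 summit in the gene and its flanks. It had 1005 fragments and an enrichment of 11.7. This summit lay 668 bp inside the gene, and its interval (chr1:225427511-225428720) stopped 101 bp short of the listed start, so the printed LBR sequence is outside it. At 2.11 summits per 100 kb, LBR had a higher density than only 19.7% of coding genes.

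The SUN genes had intermediate values. At SUN1 (chr7:815557-874934) a summit 0.986 kb inside the first base, in chr7:816371-816701, had 1122 fragments and an enrichment of 8.98. Another, 2.23 kb outside that end, had 908 fragments and 7.26 (6.79 to 7.75). The 10 summits further inside were low, between 1.58 and 3.76. The highest enrichment of the window, 16.0 (15.5 to 16.5) with 3823 fragments, lay 1.498 kb beyond the last base and 122 bp from the end of GET4, a gene for inserting tail-anchored membrane proteins. SUN2 (chr22:38734734-38755998) had 1 interval of 1275 bp over its starts, chr22:38755188-38756462, with 2 summits of 604 and 567 fragments and enrichments of 7.57 and 7.29. They lay 97 bp before the first start and 105 bp before the second, and their intervals of counting error overlapped. The 2 internal sites had 4.63 and 4.36.

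The KASH genes differed in where their sites lay. SYNE1 and SYNE2 encode giant nesprins that bind actin at their N-terminal end, and short forms keep only parts of the protein. SYNE3 encodes nesprin-3, which connects to intermediate filaments through plectin. The strongest internal summit exceeded the summits at the outer ends in SYNE1 and LMNA, and SYNE2 and SYNE3 had internal summits but none at an outer end. That makes 4 of the 8 genes with an internal summit, against 55.1% of 10943 coding genes with one, so the share is near the background. An internal summit with an enrichment of at least 10, a limit chosen after the values were seen, was present in these same 4 genes. The share was 18.5% over all coding genes and 53.9% over the 3356 coding genes of at least 100 kb, a class that includes the 3 KASH genes but not LMNA.

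SYNE1 spans 515676 bp (chr6:152121687-152637362, minus strand) and held 22 summits, all inside it. That is 4.11 per 100 kb, higher than in 63.2% of the long coding genes, whose median was 3.14. Its outer start was weak: 68 fragments and an enrichment of 3.24 in chr6:152636654-152637268, 35 bp before the second listed start. The strongest site, with 1040 fragments and 15.7 (14.7 to 16.6), lay 335 kb along the gene in chr6:152301681-152302527, 117 kb from the nearest listed start of SYNE1 and with no gene end within 1000 bp. It was higher than the strongest internal summit of 94.6% of all coding genes with one, most of them much shorter than SYNE1. An internal summit of at least 10 was in 18.5% of all coding genes but in 53.9% of the long ones. The rank of this site among long genes alone is not given here. The next summits of SYNE1 were 13.9 (865 fragments), 359 bp from the end of the antisense gene SYNE1-AS1, and 12.1 (441 fragments), 146 kb along SYNE1. After these came 11.3 (274 fragments), 86 bp from the end of SYNE1-AS2. Without strand in ATAC-seq, sites shared with an antisense gene cannot be assigned to one of the pair.

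The sites of SYNE1 were not spread evenly. A stretch of 106.6 kb, from 152295540 to 152402160 on chromosome 6, held 16 of the 22 summits; its limits were set after the positions were seen. The longest stretch without a summit was the 107.4 kb next to the outer start, followed by 99.2 kb near the 3′ end. The 2 listed starts in the last part of the gene, 452 and 469.1 kb along it, had no summit within 1000 bp. The nearest summits were 14097 and 3002 bp away.

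SYNE2 had its strongest summit at a listed start inside the gene. The first base of the gene (chr14:63761596-64226449) had no summit within 1000 bp, and no listed start of SYNE2 lies there. The listed start 91.4 kb further in had a summit 8 bp after it, in chr14:63852659-63853775, with 579 fragments and an enrichment of 12.9, the highest in the gene. The 2 other listed starts, 452.5 and 454.4 kb along the gene, had their nearest summits 18430 and 16620 bp away. Sites outside both ends of the gene came close to that start in strength. One, 8.62 kb before the first base, had 327 fragments and 10.9, and the other, 6.13 kb after the last base, had 492 fragments and 10.9. An internal site with 263 fragments had 10.5. SYNE2 held 2.47 summits per 100 kb, more than 40.1% of long coding genes, with gaps of 122.1 and 116.9 kb between summits.

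SYNE3 (chr14:95407266-95516650, minus strand) had no summit within 1000 bp of its outer start; the nearest was 3184 bp before it, with an enrichment of 4.16. Its internal start, 16.1 kb along the gene, had summits 630 and 882 bp before it with 127 and 46 fragments and enrichments of 4.47 and 1.65. The stronger sites lay elsewhere inside the gene: 10.4 (453 fragments, chr14:95460841-95461483), 10.2 (434 fragments, chr14:95482973-95483694), and 9.42 with the largest pileup of the gene, 627 fragments, 6.84 kb before the internal start. The gene held 16 summits, 12.4 per 100 kb, more than 97.4% of long coding genes.

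**Figure D3:**
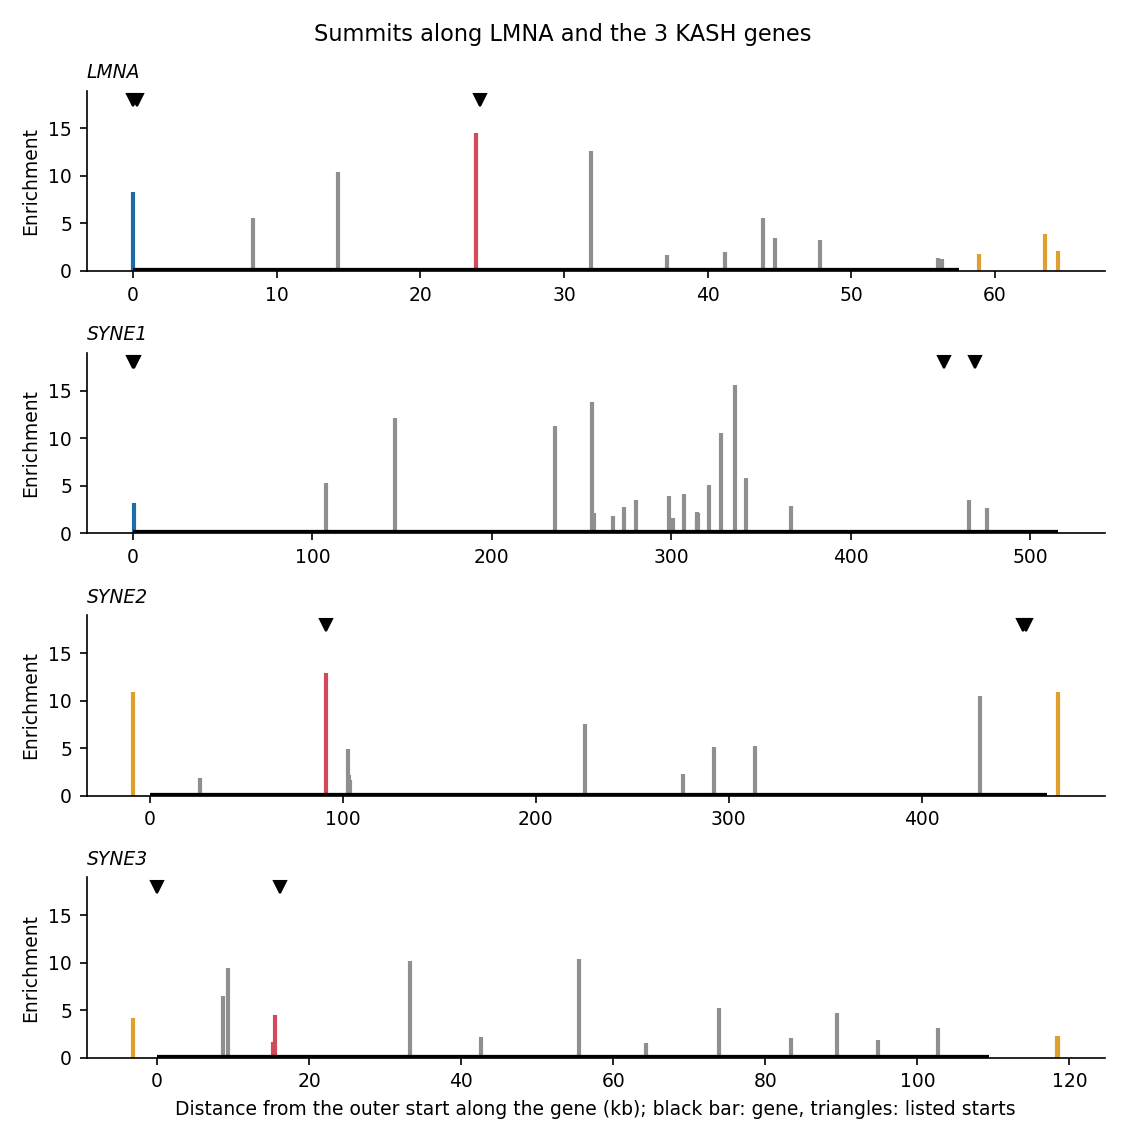
Enrichment (vertical axis, ratio) of each summit against its distance from the first base of the gene in the direction of transcription (horizontal axis, kb), for LMNA, SYNE1, SYNE2 and SYNE3. Black bars are the genes, triangles the listed starts, and the colours blue, red, grey and orange mark an outer start, an internal start, other sites inside and sites outside the gene. The tallest line stands at an internal start in LMNA and SYNE2 and away from every listed start in SYNE1 and SYNE3.

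Base composition was compared across the 20 listed starts, a comparison added after the values were seen. Windows of 65 to 75% GC had a summit within 1000 bp at 7 of 7 starts, against 80.7% of 6507 windows of coding genes in that range. Some of these starts belong to the same gene and share a summit. At 50 to 65% GC the count was 4 of 5 starts, against 63.3% of 8569 windows. At 75% GC or more it was 3 of 4, against 81.5% of 2756 windows. Below 50% GC a summit was present at 1 of 4 starts, that of LBR, against 22.5% of 4343 windows. The internal starts without a summit had GC contents of 34.3 and 43.0% in SYNE1 and 36.7 and 56.3% in SYNE2. The SYNE3 outer start went against this order. Its window had 80.3% GC, 42 CpG dinucleotides and 6 GC boxes but no summit, whereas 76.1% of the 662 windows with at least its GC content had one. The SYNE1 start at 79.0% GC had a summit, and of the open windows at 75% GC or more 10.5% had a lower enrichment than it. The part of base composition in these differences was not tested.

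**Figure D4:**
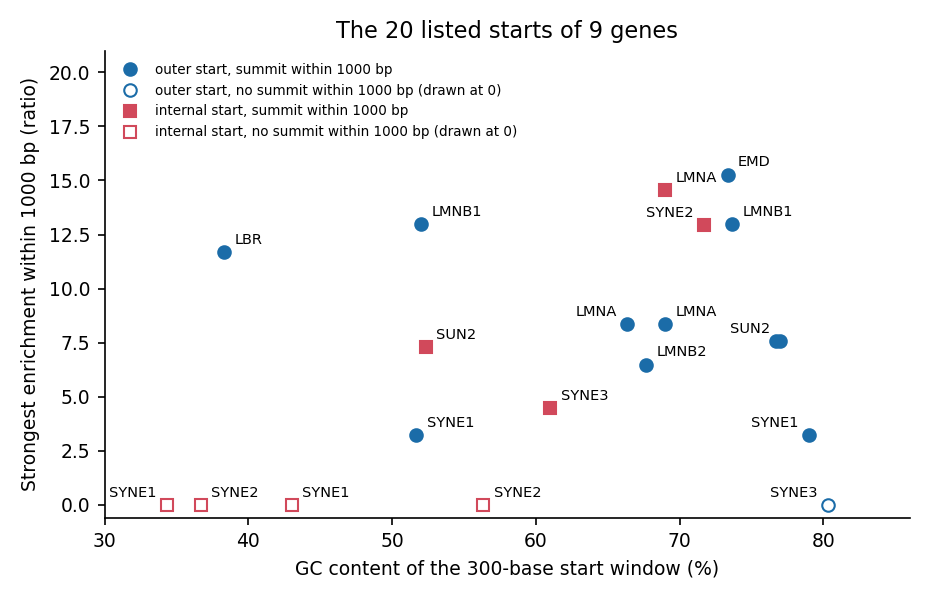
Strongest enrichment within 1000 bp (vertical axis, ratio) against the GC content of the 300-base window (horizontal axis, percent) for the 20 listed starts of 9 genes. Circles are outer and squares internal starts, and open symbols at 0 have no summit within 1000 bp: 4 internal starts of SYNE1 and SYNE2 and the GC-rich outer start of SYNE3.

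The genes also differed in how much signal surrounded their sites. Pileup and local background were recovered from the deposited enrichment and p (the steps are given with the processing). The lowest background in the list, 20.3 fragments, is called genome-wide, and 53.0% of all 188019 summits were at it. Of the 50 summits of SYNE1, SYNE2 and SYNE3, 23 were at this value, compared with 1 of 51 at the other 7 genes. The median background was 264.0 fragments at EMD, 208.3 at LMNA and 206.8 at LMNB1. It was 85.1 at LBR, 54.2 at LMNB2, 51.6 at SUN2 and 50.6 at SUN1, and 27.6 at SYNE3, 20.5 at SYNE1 and 20.3 at SYNE2. The largest pileup in the gene and its flanks was 5511 at EMD, 3823 at SUN1 (the summit beside GET4), 3319 at LMNA and 2705 at LMNB1, above 99.8%, 98.1%, 96.7% and 93.3% of coding genes. It was 1443 at LMNB2 (the summit beside TIMM13), 1040 at SYNE1, 1005 at LBR, 627 at SYNE3, 604 at SUN2 and 579 at SYNE2. A higher local background lowers the enrichment for the same pileup. The part of the background in these differences was not tested.

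**Figure D5:**
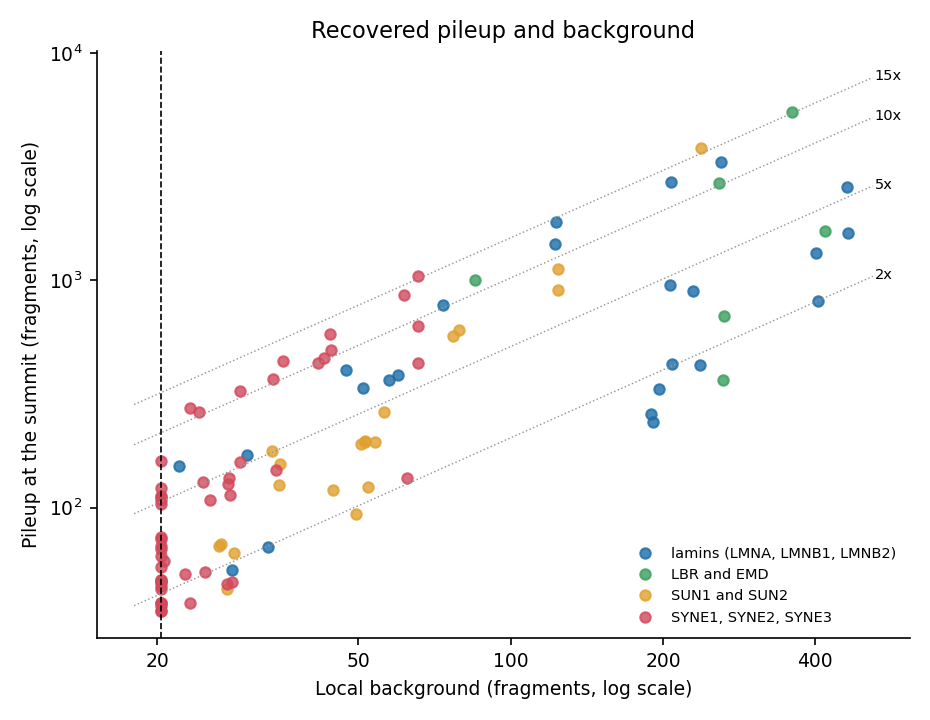
Fragment pileup at the summit (vertical axis, log scale) against local background (horizontal axis, fragments, log scale) for the 101 summits, coloured by group of genes. Dotted lines mark enrichments of 2, 5, 10 and 15, and the dashed line the genome-wide background of 20.3 fragments. Points of the KASH genes lie at the left, many on the dashed line, and those of LMNA, LMNB1, EMD and SUN1 reach the upper right.

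Other genes of the nuclear envelope were counted in the same way, from lists of lamina partners, lamin maturation enzymes and LINC genes of restricted expression. Summits lay near an outer end in 18 of 22, against 65.7% of coding genes. All 11 partners of the lamina had one, with a median strongest enrichment of 11.4 against 11.7 over coding genes. They include TMPO and LEMD3, which carry the LEM domain that emerin also has, BANF1, the chromatin protein this domain binds, and TMEM201, which had the highest value of the 11, 13.7. All 5 genes of lamin maturation had one, with a median of 15.1. ZMPSTE24, the protease that trims farnesylated prelamin A, had 17.3 from 2043 fragments. The farnesyltransferase subunits FNTB and FNTA had 15.2 and 15.1. Among 6 LINC genes of restricted expression, 2 had a summit near an outer end, SPAG4 with 14.5 and SUN3 with 14.3. SUN5, SYNE4, KASH5 and IRAG2 had none, and none of the 5 with a listed start had a summit near it.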

How the data were processed

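Chromatin accessibility was measured by ATAC-seq in 12 HT1080 libraries, 4 for each of 3 collagen concentrations. Per the submitters' processing notes, fastp 0.20.0, Bowtie2 2.4.3, deepTools 3.5.0, SAMtools and MACS2 2.2.7.1 and the build hg38 were used; their settings, and any control, are not given in the sources used here. The deposited list has 10 columns and pools all libraries; its 0 columns of per-library values allow no test between groups. The authors deposited the enrichment as a ratio to the local background, p and q values as −log10, and a score of 10 times the −log10 q, truncated, in 99.8% of lines. The lowest −log10 q was 1.30.

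Summits were placed at the interval start plus the deposited offset, counted from 1. Genes and listed starts came from RefSeq tables of GRCh38.p14, whose assembly matches hg38. The unit of pileup is called a fragment here, but the settings that define it are not given. Pileup and background were solved from enrichment = (pileup + 1)/(background + 1) and the Poisson upper tail. This model is not stated by the authors. It gave whole pileups, within 0.05, in 99.96% of lines. Data simulated from the same model tested the solving step only, not the model. A background within 0.2% of the lowest counted as genome-wide. Python 3.11.15, numpy 2.4.6, scipy 1.17.1 and pandas 2.3.3 were used. No p-values were computed. All 10 genes are named; at each, the strongest start summit, the strongest internal summit and up to 3 more were described, with genes ending within 1000 bp, and values that go beyond this were chosen after they were seen. Of the other envelope genes, those without a summit and the highest 3 are named by the same rule, and the rest of those named were chosen after seeing values. The genes and lists were chosen with earlier results of these data known. Alternatives were the distance, the flank, a stricter q, 1 summit per interval, interval overlap, and pileup in place of enrichment. The exon and intron structure was not used here.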

Additional observations from a re-analysis of the deposited data

How the results depend on the processing

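Of 34 recomputed values, all medians stayed within the 95% binomial interval of the reported median and all counts within 1.5 times the reported count. With so few genes these limits are wide and could hardly fail. The interval was 7.57 to 13.0 for the outer-end median and 604 to 2705 for the median pileup. With a flank of 0 kb the whole-window median, 11.7, sat at its lower limit, and a rise from 4 to 6 genes sat at the count limit. With 500 bp in place of 1000 bp, 6 genes had a summit near an outer end (58.5% of coding genes) and 7 near a listed start (64.0%): LBR and SUN1 lost the first, LBR and SYNE3 the second. An internal summit then exceeded any near the outer ends in 6 genes (59.7%): LMNA, the 3 KASH genes, and LBR and SUN1, which had none left near an outer end. With 2500 bp, the GET4 summit raised the value at the outer ends of SUN1 from 8.98 to 16.0. A −log10 q of at least 10 left 72 of the 101 summits, and 1 summit per interval left 82. Inside the genes alone 77 remained. Comparing pileups gave the same 4 genes with an internal site above the outer ends. Without the summits at 3′ ends and in flanks, an alternative added after seeing the data, the median of the strongest summit per gene was 12.3 instead of 13.0. Leaving out libraries and fits with or without a replicate block were not run, since the list is pooled. Depth per library is unknown, so sites below the threshold in the pool are not shown to be closed.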

Other observations

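Several strong sites in the windows lay near the ends of neighbours of the lamin and LINC genes. The summit of 16.0 beside SUN1 was 122 bp from an end of GET4, and the summit of 11.7 beside LMNB2 was 146 bp from TIMM13. Both exceeded every summit inside SUN1 or LMNB2. The summits of 6.30 and 6.25 beyond the start of LMNB2 shared an interval, chr19:2461758-2463339, with the end of the noncoding gene LINC01775, 33 bp from the first. Beside EMD a summit of 10.4 lay 957 bp from the noncoding gene LOC124905228. A low summit of 2.05 in the flank of LMNA was 388 bp from an end of SEMA4A, a semaphorin gene. Altogether 12 of the 101 summits lay within 1000 bp of the end of another gene. The same share over all summits is not given here, so this count cannot be called high or low.

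Of 67 summits inside the genes and away from listed starts, 10 had an enrichment of at least 10, a limit chosen after the values were seen. The same share over the internal summits of all coding genes is not given here, so this count cannot be called high or low. Of these 10 summits, 2 lay within 1000 bp of an end of SYNE1-AS1 or SYNE1-AS2 and cannot be assigned to one gene of the pair. The other 8, in LMNA, SYNE1, SYNE2 and SYNE3, had no gene end within 1000 bp. The list does not tell a promoter from an enhancer, and transcripts from these sites were not measured here.

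NEMP1, an inner membrane protein of the lamina partner list, was the partner with the largest internal value. Its strongest summit at a listed start had an enrichment of 17.4 and lay inside the gene, while its outer ends reached 10.1, the same arrangement as in LMNA. TOR1AIP2 was the weakest of the list at its ends, with 3.73, and had 12.4 elsewhere in its window, the value of TOR1AIP1 next to it.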
